A study of Homo sapiens with 4 samples.

Results

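PFKL, PFKP, GPI, PFKFB3 and SLC16A3 are genes of glycolysis and lactate export that carried peaks of lactylated histone H4 lysine 5 (H4K5la) in the human neuroblastoma line SH-SY5Y. They are 5 of 19866 protein-coding gene records, and they were chosen by the deposited peaks themselves: each had a peak in at least 1 of the genotypes. A peak was counted at a gene when it overlapped the gene record or the 10 kb on either side by at least 1 bp. By this rule the wild-type (WT) list gave 10 of its 1937 peaks and the DNAJC12 knockout (DNAJC12KO) list 7 of its 2743.

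The study compared SH-SY5Y cells that were WT with SH-SY5Y cells whose genotype is labelled DNAJC12KO, a knockout of the gene for a co-chaperone that assists aromatic amino acid hydroxylases. For either genotype there was 1 library precipitated with an antibody to H4K5la and 1 input library, and each genotype is represented by 1 peak list. No agent, time course or rescue is given in the labels, and whether the knockout line is 1 clone is not stated there. With 1 library per group, no difference between the genotypes has a replicate check, and none was tested. Read numbers are not part of the lists and sequencing depth is unknown, so a gene without a peak is a gene where nothing passed the authors' threshold. Fold enrichment (a linear ratio over the peak caller's background) and -log10 q are the authors' values, averaged over each broad peak. They rank and describe peaks within 1 list.

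Glycolysis splits glucose to pyruvate, and lactate dehydrogenase turns pyruvate into lactate. Histone lactylation takes its acyl group from lactate, so the genes of this pathway code for the enzymes that make the precursor of the mark. GPI, glucose phosphate isomerase, makes the fructose phosphate that phosphofructokinase uses. PFKL and PFKP encode the liver and platelet isoforms of phosphofructokinase, which catalyses the committed step. PFKFB3 makes the sugar bisphosphate that activates phosphofructokinase. SLC16A3 encodes a monocarboxylate transporter of the plasma membrane that exports lactate.

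In each list 4 of the 5 genes had a peak, while the share of all protein-coding genes with one was 8.57% (WT) and 10.8% (DNAJC12KO). PFKL, PFKP and SLC16A3 had peaks in both lists, which held for 4.1% of all genes. GPI had a WT peak and no DNAJC12KO peak, a pattern of 4.47% of all genes. PFKFB3 had a DNAJC12KO peak and no WT peak, a pattern of 6.7% of all genes. A peak in either list was present at 15.3% of all genes. Since the genes were picked for having peaks, these background shares are given for scale and nothing is read from the difference.

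**Figure D1:**
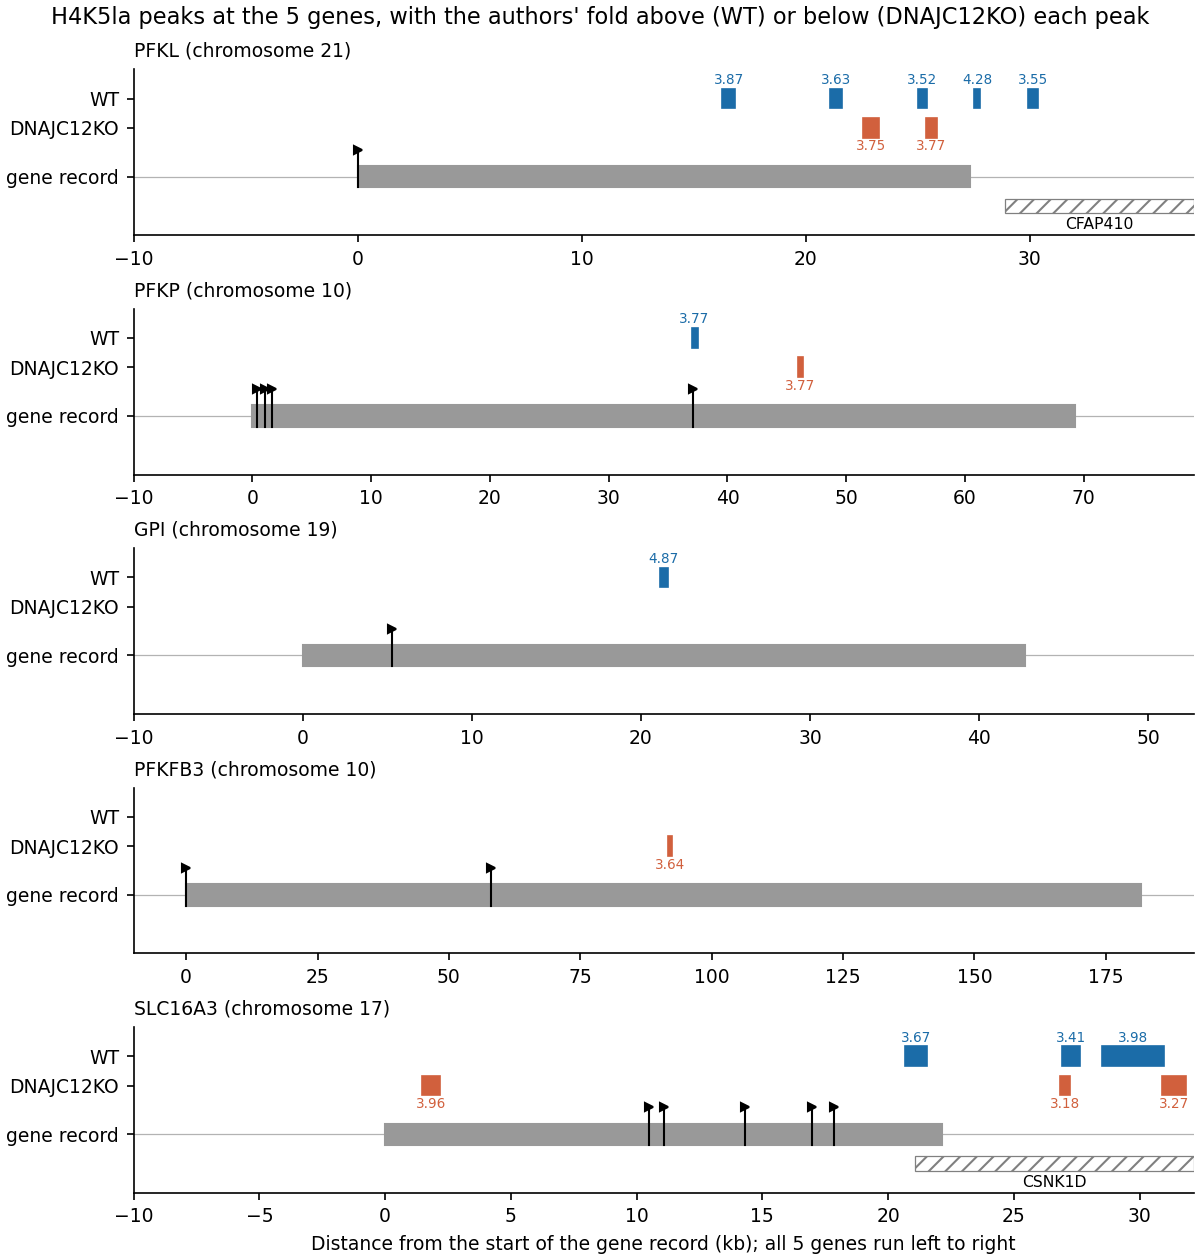
Peaks of the WT list (upper row of each panel) and of the DNAJC12KO list (lower row) along the 5 gene records, with distance from the start of the record in kb on the x axis and the authors' fold beside each peak. Black flags mark transcription starts listed in RefSeq, and hatched boxes mark other gene records that a peak overlaps. Only the WT peak of PFKP sits on a listed start of these genes. The PFKL peaks of both lists lie 16.3 kb or more past the PFKL start.

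GPI (chromosome 19, 34359718 to 34402413, plus strand) held the highest-ranked peak at these genes. Its only peak, in the WT list, spanned 34380862 to 34381295, a width of 434 bp. The authors' fold was 4.87 (rank 24 of 1937, the top 1.24%) and the -log10 q was 2.50 (rank 48). The peak lay in the gene body, centred at 50.03% of the 42.7 kb record and 15.9 kb past the only listed transcription start. Its width was ordinary, at rank 1046. The nearest DNAJC12KO peak was 604 kb from the gene record and 625 kb from the WT peak. GPI thus had 1 strong WT peak, with no other WT peak and no DNAJC12KO peak within 500 kb of its record. The median protein-coding gene had 0 WT and 1 DNAJC12KO peaks within that distance, so nothing is read from the empty stretch.

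PFKL (chromosome 21, 44300053 to 44327373, plus strand) had the most peaks, 5 WT and 2 DNAJC12KO. At least 5 WT peaks were present at 43 protein-coding genes, or 0.216% of them. None of the 7 PFKL peaks lay near the promoter: the first began 16.3 kb past the single listed start, in a gene of 27.3 kb. The WT peaks inside the record spanned 44316332 to 44316895 (fold 3.87), 44321128 to 44321667 (fold 3.63) and 44325080 to 44325446 (fold 3.52). The remaining WT peaks lay past the end of the gene, at 44327569 to 44327847 and at 44329957 to 44330438 (fold 3.55). The last of these lay inside the record of CFAP410, a cilia-associated gene on the minus strand that ends beyond PFKL.

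The PFKL peak just past the gene was the strongest of its group and also the narrowest. It began 196 bp after the record end and was 279 bp wide. That is the smallest width in the WT list and is shared by many other peaks (tied at width rank 1692 of 1937). Its fold was 4.28 (rank 222 of 1937) and its -log10 q 2.17 (rank 121). The other 4 WT peaks of PFKL ranked between 832 and 1608 by fold, so PFKL combined 1 peak in the top 11.5% with 4 of middle or low rank.

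The DNAJC12KO peaks of PFKL spanned 44322618 to 44323336 (719 bp, fold 3.75, rank 1144 of 2743) and 44325406 to 44325926 (521 bp, fold 3.77, rank 1047). Both lay inside the record, centred at 83.9% and 93.7% of its length. The first was 950 bp from the nearest WT peak. The second overlapped the third WT peak by 41 bp, which is 11.2% of that WT peak. The strong WT peak past the gene end had no DNAJC12KO counterpart, with a gap of 1642 bp. Both DNAJC12KO peaks therefore lay within the longer stretch spanned by the WT peaks of PFKL, mostly at neighbouring and not at shared positions. That stretch also reached past the gene end.

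PFKP (chromosome 10, 3067548 to 3136805, plus strand) had 1 peak in each list. The WT peak spanned 3104524 to 3105031 (508 bp) with a fold of 3.77 (rank 1077 of 1937) and a -log10 q of 1.36 (rank 1321). The DNAJC12KO peak spanned 3113474 to 3113879 (406 bp) with a fold of 3.77 (rank 1068 of 2743) and a -log10 q of 1.44 (rank 1557). The peaks were 8442 bp apart, the WT peak centred at 53.8% and the DNAJC12KO peak at 66.6% of the 69.3 kb record. Within 500 kb of the PFKP record each list had this 1 peak and no other. For the median protein-coding gene these counts were 0 (WT) and 1 (DNAJC12KO).

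The WT peak of PFKP covered a listed transcription start, at 3104609, which lies 37061 bp into the record. Of the 17 peaks, it was the only one that covered a listed start of the 5 genes. Of the 13 starts listed for these genes, 3104609 was the only one whose window (250 bases before to 50 after) a peak touched. Among all 34943 listed windows, 0.0944% were touched by a WT peak and 0.189% by a DNAJC12KO peak. The other 3 starts of PFKP, near the beginning of the record, were 35.3 kb or more from the nearest peak of either list. The internal start was 8.86 kb from the DNAJC12KO peak.

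The 250 bases before the internal PFKP start are shown because they are the only promoter window among these genes with H4K5la signal above the threshold. The capitals mark the 85 bases that lie under the WT peak, which continues past the start. The windows before the first starts of PFKL and PFKFB3, which no peak touched, are shown for contrast. In those, capitals mark GGGCGG (the GC box) or ACGTG (the core of the hypoxia response element) on either strand. All are RefSeq sequences of GRCh38.p14, plus strand, 5′ to 3′: chr10:3104359-3104608 for PFKP, chr21:44299803-44300052 for PFKL and chr10:6144671-6144920 for PFKFB3.
PFKP internal start: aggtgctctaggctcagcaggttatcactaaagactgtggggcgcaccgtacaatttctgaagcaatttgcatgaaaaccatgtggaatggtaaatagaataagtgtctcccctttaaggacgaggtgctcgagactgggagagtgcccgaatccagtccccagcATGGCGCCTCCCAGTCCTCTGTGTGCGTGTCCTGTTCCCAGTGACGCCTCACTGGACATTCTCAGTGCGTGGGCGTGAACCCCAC
PFKL start: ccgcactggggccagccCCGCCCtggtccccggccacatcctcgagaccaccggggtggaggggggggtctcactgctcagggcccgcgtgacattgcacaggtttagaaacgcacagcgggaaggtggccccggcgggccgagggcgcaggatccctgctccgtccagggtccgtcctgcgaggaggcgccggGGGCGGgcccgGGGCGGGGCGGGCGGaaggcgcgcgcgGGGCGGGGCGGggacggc
PFKFB3 first start: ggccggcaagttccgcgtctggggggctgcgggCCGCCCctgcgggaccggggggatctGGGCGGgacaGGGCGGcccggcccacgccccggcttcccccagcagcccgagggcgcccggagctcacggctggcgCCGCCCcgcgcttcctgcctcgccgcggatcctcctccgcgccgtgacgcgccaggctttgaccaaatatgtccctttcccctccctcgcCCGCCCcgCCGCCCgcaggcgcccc

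The window under the peak was the one of lowest GC content among the 13. It had 54.0% G and C, against 78.0% before the PFKL start, 79.2% before the first PFKFB3 start and a median of 58.0% over all listed windows. The other 3 PFKP windows had 66.0 to 81.6%. The internal PFKP window held no GGGCGG, no ACGTG and no CACGTG (the E-box, whose letters contain ACGTG). The PFKL window held 7 matches of GGGCGG, counted on both strands with overlaps, and the first PFKFB3 window 6. Over the 13 windows, 8 held GGGCGG, 4 held ACGTG and 1 held CACGTG, against 42.5%, 18.5% and 6.32% of all windows of the same length. These matches describe letters in a window and say nothing of binding.

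PFKFB3 (chromosome 10, 6144921 to 6326637, plus strand) had 1 peak, in the DNAJC12KO list, at 6236546 to 6237271. It was 726 bp wide (rank 392 of 2743), with a fold of 3.64 (rank 1552) and a -log10 q of 1.42 (rank 1624). Among the single peaks of GPI, PFKP and PFKFB3 it was the widest, while its fold was below the list's median of 3.69. It lay in the gene body at 50.6% of the 182 kb record, 33.6 kb past the second listed start and 91.6 kb past the first. No WT peak lay within 500 kb, and the nearest was 1304 kb from the record. The median protein-coding gene also had 0 WT peaks within 500 kb. PFKFB3 was thus the reverse case of GPI in which list held a peak, but with a peak of middle rank.

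SLC16A3 (chromosome 17, 82217934 to 82240086, plus strand) had 3 peaks in each list, of which only 1 in each list touched its record. The WT peak in the record spanned 82238620 to 82239470 (851 bp) with a fold of 3.67 (rank 1304 of 1937) and a -log10 q of 1.51 (rank 860). It lay at the 3′ end, 616 bp before the record stops, and also overlapped CSNK1D, a casein kinase gene whose record (82239019 to 82273750) begins inside that of SLC16A3. The DNAJC12KO peak in the record spanned 82219404 to 82220124 (721 bp) with a fold of 3.96 (rank 552 of 2743) and a -log10 q of 1.71 (rank 667). It was the strongest of the 7 DNAJC12KO peaks and lay at the 5′ end of the record, at 8.26% of its length and 8.31 kb before the first listed start. This DNAJC12KO peak began 1470 bp past the start of the record, while the first listed start lies 10501 bp into the record. The WT peak was 2.85 kb past the last listed start. Inside SLC16A3 the lists thus marked opposite ends of the record, 18.5 kb apart.

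The remaining 4 peaks counted at SLC16A3 lay downstream, in CSNK1D. The WT peaks there spanned 82244832 to 82245554 (fold 3.41) and 82246448 to 82248914 (fold 3.98). The second of these was 2467 bp wide, the second widest of the 1937 WT peaks. The DNAJC12KO peaks spanned 82244768 to 82245161 (fold 3.18) and 82248824 to 82249788 (fold 3.27), at ranks 2689 and 2592 of 2743 by fold. Each overlapped a WT peak, by 330 bp and by 91 bp. The longer overlaps between the lists were thus in the neighbouring gene, and the DNAJC12KO peaks there were among the lowest of their list by fold. By -log10 q (1.28 and 1.30) these DNAJC12KO peaks ranked 2340 and 2236 of 2743, the first tied with many other peaks. SLC16A3 lies in the crowded distal part of 17q, where 41 WT and 40 DNAJC12KO peaks lay within 500 kb of its record. For the median protein-coding gene these counts were 0 and 1, and for PFKL they were 7 and 13.

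**Figure D2:**
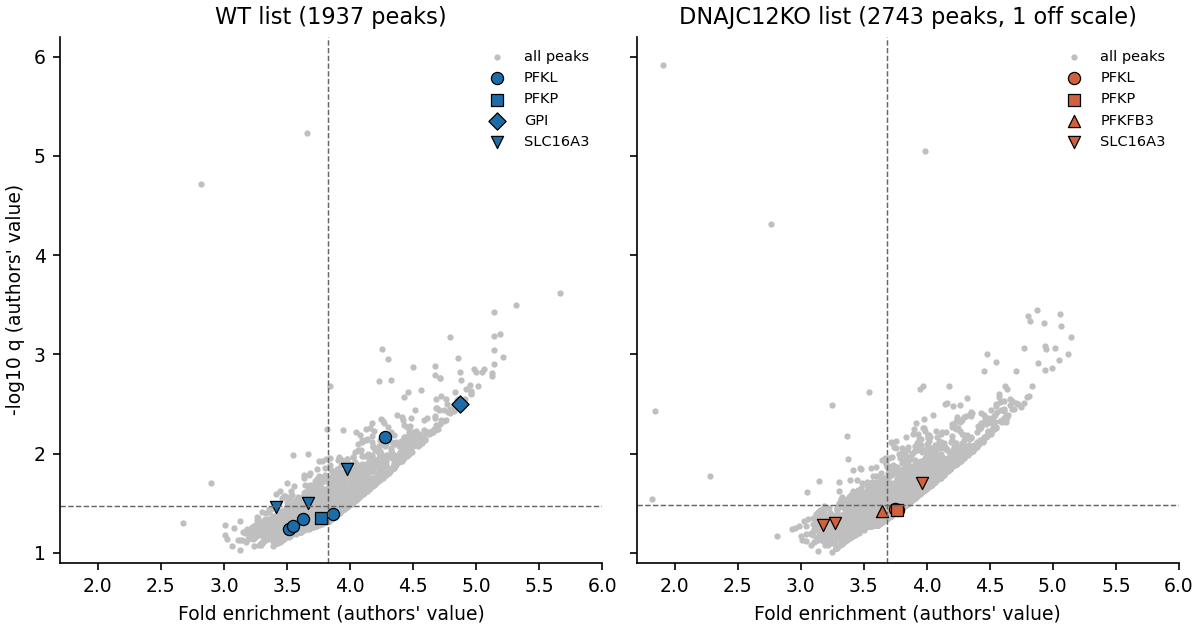
Fold against -log10 q (the authors' values) for all peaks of the WT list (left) and the DNAJC12KO list (right), in grey, with the peaks at the 5 genes in colour and dashed lines at each list's medians. The GPI peak (fold 4.87) and the PFKL peak past the gene end (fold 4.28) lie in the upper part of the WT cloud, and the DNAJC12KO peaks all lie at a fold of 3.96 or less.

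Taken as a set, the peaks at these genes were of middling strength. The WT folds ran from 3.41 to 4.87 with a median of 3.72, and the median of the whole WT list was 3.82. The DNAJC12KO folds ran from 3.18 to 3.96 with a median of 3.75, and the median of that list was 3.69. Above the list's median fold lay 4 of 10 WT peaks and 4 of 7 DNAJC12KO peaks, and above its median -log10 q lay 4 and 1. Only 2 WT peaks, those of GPI and past the end of PFKL, and 0 DNAJC12KO peaks had a -log10 q of 2 or more. In the whole lists 10.4% and 9.99% of peaks did. Wider than their list's median (453 bp WT, 460 bp DNAJC12KO) were 7 of 10 WT and 5 of 7 DNAJC12KO peaks, among them 3 that lay in CSNK1D and outside the 5 records (2467, 723 and 965 bp).

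**Figure D3:**
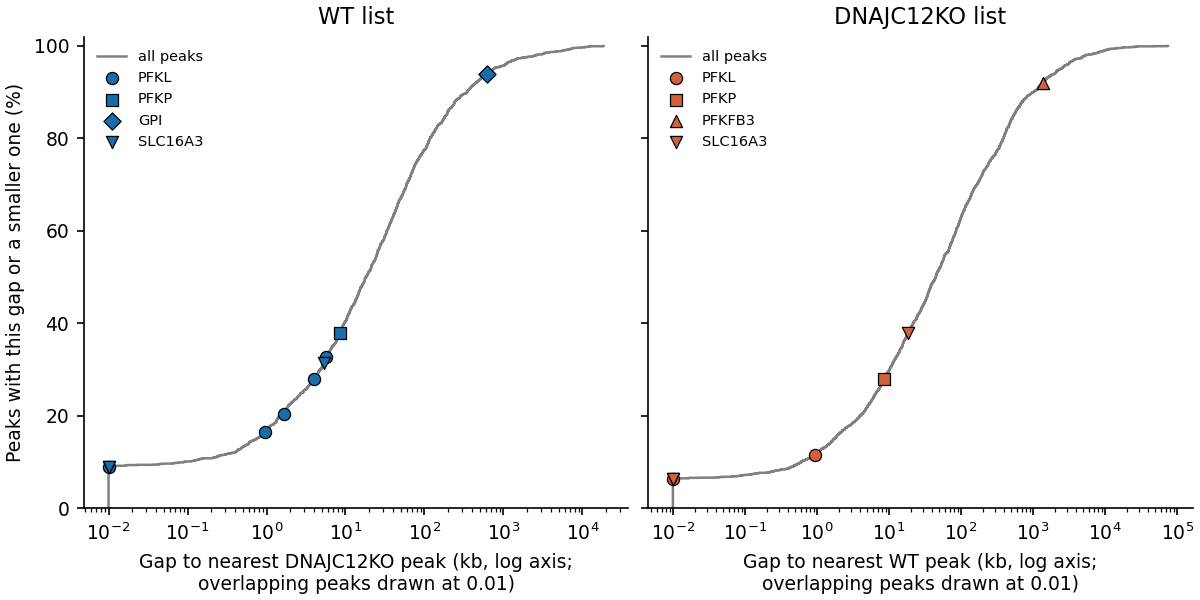
Share of peaks (%) whose gap to the nearest peak of the other list is at most the value on the x axis (kb, log axis, overlapping peaks drawn at the left end), for all WT peaks (left) and all DNAJC12KO peaks (right) as a grey line, with the peaks at the 5 genes placed on it. GPI (625 kb) and PFKFB3 (1395 kb) sit at the far end, and all other peaks at these genes lie at 18.5 kb or less.

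PFKL, PFKP and SLC16A3, the genes with peaks in both lists, held 9 WT and 6 DNAJC12KO peaks. Of all 10 WT peaks at the 5 genes, 3 overlapped a DNAJC12KO peak, 1 at PFKL and 2 in CSNK1D. The same 3 pairs make up the overlaps of the 7 DNAJC12KO peaks. Over the whole lists 8.88% of WT and 6.31% of DNAJC12KO peaks overlapped. The genes were picked for carrying peaks, and the peaks of 1 gene are not independent, so these shares are given for scale and nothing is read from the difference. The median gap was 2.84 kb for the 10 WT peaks and 18.2 kb for all WT peaks, and 0.95 kb and 44.5 kb for the DNAJC12KO peaks. The WT peak of GPI and the DNAJC12KO peak of PFKFB3, genes with a peak in 1 list only, had gaps of 625 and 1395 kb. Genes with peaks of both lists in the window have short gaps by construction, so nothing is read from the gaps either.

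**Figure D4:**
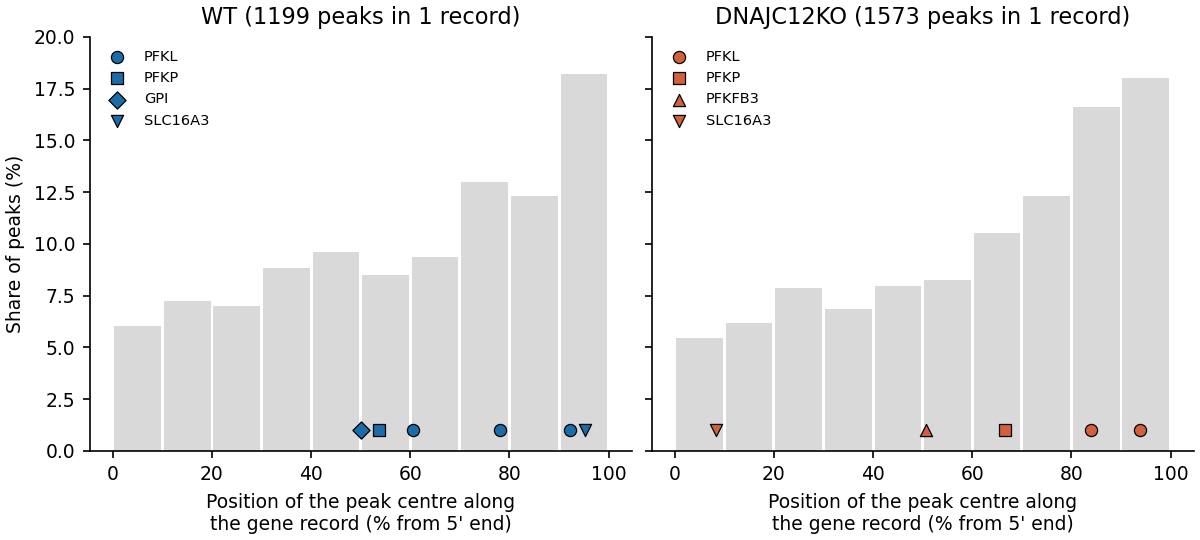
Position of peak centres along the gene record (% from the 5′ end) for WT (left) and DNAJC12KO (right). Grey bars give the share (%) of all peaks whose centre lies in exactly 1 protein-coding record with a listed start. Symbols, at an arbitrary height, give the peaks at the 5 genes. Apart from the DNAJC12KO peak of SLC16A3 at 8.26%, all symbols lie at 50.03% or beyond. The WT peak of SLC16A3 also lies in CSNK1D, which has no listed start, and is counted in the bars under SLC16A3.

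Inside the records the position of the peak centres varied by gene. Of the 6 WT peaks centred in a record, GPI's lay at 50.03% and the others at 53.8% (PFKP), 60.6%, 78.1% and 92.3% (PFKL) and 95.3% (SLC16A3). Of the 5 DNAJC12KO peaks, those of PFKFB3 (50.6%), PFKP (66.6%) and PFKL (83.9% and 93.7%) lay beyond 50% and the SLC16A3 peak lay at 8.26%. The single peaks of GPI and PFKFB3 and the WT peak of PFKP were thus near the middle, and the PFKL peaks and the WT peak of SLC16A3 nearer the 3′ end. Only protein-coding genes with a listed start entered the count over all lists, which leaves out chromosome 8. Of the peaks centred in a single such record, 61.2% of 1199 WT and 65.7% of 1573 DNAJC12KO peaks lay beyond 50% of it. The last 10% of the record held 18.2% and 18.0% of them, and the first 10% held 6.01% and 5.47%. Within 1 kb of a listed start of the gene they were counted at lay 1 of the 10 WT and 0 of the 7 DNAJC12KO peaks. Of all peaks on chromosomes with listed starts, 6.93% and 6.14% lay within 1 kb of a start of any gene. These measures differ, so nothing is read from the difference.

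Few peaks lay near the 10 kb limit. The counted peak farthest outside a record was the DNAJC12KO peak that began 8738 bp past SLC16A3 (fold 3.27). The nearest peaks left out were a WT peak 13.0 kb before PFKL, in AIRE (fold 3.90), a DNAJC12KO peak 23.7 kb after PFKL, in TRPM2 (fold 3.44), and a WT peak 44.9 kb before SLC16A3, in CCDC57 (fold 3.63).

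**Figure D5:**
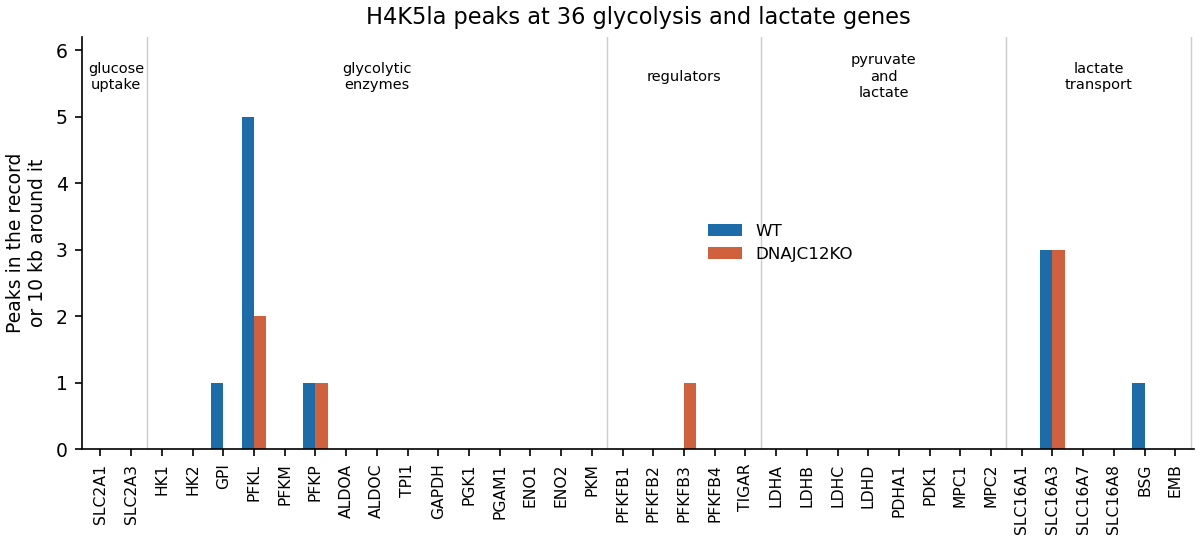
Number of peaks in the record or 10 kb around it for 36 glycolysis and lactate genes, grouped by role, in the WT (blue) and DNAJC12KO (orange) lists. Peaks are present at the 5 genes described and at BSG, and the other 30 genes have none in either list.

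The wider pathway was counted in the same way. Of 36 genes of glucose uptake, glycolysis, its regulation and lactate handling, 5 had a WT peak (13.9%) and 4 a DNAJC12KO peak (11.1%), beside 8.57% and 10.8% of all protein-coding genes. These counts include the 5 genes picked for their peaks. The 31 genes left once the 5 picked genes are set aside had fewer peaks by construction, and 1 of them had a WT peak and 0 a DNAJC12KO peak. That gene was BSG, which encodes basigin, the membrane chaperone that carries lactate transporters such as the SLC16A3 product to the cell surface. Its WT peak spanned 582672 to 583369 on chromosome 19 (698 bp), near the 3′ end of a record of 12211 bp. The fold of 3.82 was the median of the WT list and was shared by many other peaks (tied at rank 925 of 1937). The -log10 q was 1.32. The nearest DNAJC12KO peak was 58375 bp away.

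By role, in groups too small to be read against the shares of 8.57% (WT) and 10.8% (DNAJC12KO) over all genes and with the picked genes included, WT peaks fell on 3 and DNAJC12KO peaks on 2 of 15 glycolytic enzyme genes. WT and DNAJC12KO peaks fell on 0 and 1 of 5 regulators and on 2 and 1 of 6 lactate transport genes. The 2 glucose transporter genes SLC2A1 and SLC2A3 had none. Nor did the 8 genes of pyruvate and lactate handling, which include LDHA and LDHB, the lactate dehydrogenase subunits that make and use lactate. Among the isoforms, PFKM, the muscle phosphofructokinase, and PFKFB1, PFKFB2 and PFKFB4 had no peak in either list, and of the transporter genes SLC16A1, SLC16A7 and SLC16A8 had none.

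Genes with a similar pattern were looked up as a description, since the counts themselves chose the 5 genes. Likeness was taken as equal numbers of WT and of DNAJC12KO peaks, then the nearest record length, over the 2 libraries. Counts of 5 and 2 as at PFKL were found at 4 other protein-coding genes, the nearest in length being RECQL5 on chromosome 17 (40.3 kb). Counts of 3 and 3 as at SLC16A3, where 2 of the 3 in each list lay in CSNK1D and outside the SLC16A3 record, were found at 14, with SCRIB nearest (24.8 kb). The single peaks of PFKP, GPI and PFKFB3 had the same counts as 303, 750 and 1085 other genes, the nearest being LOC124905135, SLC25A40 and IGF2BP2.

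The identity of the cells cannot be read from peak lists, which give no expression. Of 8 marker genes of noradrenergic neuroblastoma cells, 2 had a WT peak (DBH and CHGA) and 1 a DNAJC12KO peak (TH) in the same window, and 5, HAND2 and GATA3 among them, had none. Of 7 fibroblast and blood genes, only COL1A1 had peaks, 1 in each list. Over all protein-coding genes the shares were 8.57% (WT) and 10.8% (DNAJC12KO), and in lists this short nothing is read from the counts.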

How the data were processed

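Chromatin immunoprecipitation sequencing of H4K5la was done in 4 libraries, an immunoprecipitate and an input for each genotype. The tool MACS2 2.2.6 and the build hg38 are named, per the submitters' processing notes. Not given in the sources used here are the aligner, filters, peak-calling options, use of the input as control and any spike-in scaling. Per the sample descriptions, each genotype has 1 broad peak list, taken as that of its immunoprecipitated library. The deposited values per peak are a fold enrichment (a linear ratio) and the peak caller's -log10 p and -log10 q. The lowest deposited -log10 q was 1.03 (WT) and 1.01 (DNAJC12KO). Columns of other samples numbered 0.

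Of 1943 WT and 2755 DNAJC12KO peaks, the 1937 and 2743 on numbered or sex chromosomes were kept and ranked within their list, rank 1 being highest, with 1-based coordinates. Gene records came from RefSeq (GRCh38.p14) and starts from its promoter table, which lists none for chromosome 8. All 5 genes matched both tables by symbol. Unplaced and alternate records were left out. Gaps count the bases between peaks. The planned comparison of the PFKL and PFKP proteins was not made here, and 1 planned marker gene is not reported here. Python 3.11.15, numpy 2.4.6, scipy 1.17.1, pandas 2.3.3 and matplotlib 3.10.9 were used, and counting and gap functions were tested on simulated intervals. The genes, lists and settings were chosen with earlier results of these data known. Named genes are the 5 members, listed pathway genes with a peak, other records under their peaks and the gene of most similar counts; AIRE, TRPM2, CCDC57 and the marker genes were named after their values were seen. Alternatives were other windows, stricter thresholds, lists of equal length and other overlap rules.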

Additional observations from a re-analysis of the deposited data

How the results depend on the processing

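The 5 genes kept their numbers of genes with a peak (4 WT and 4 DNAJC12KO) with the record alone, windows of 3 and 50 kb, and lists of equal length. A window of 50 kb can lose no gene picked at 10 kb. Over all protein-coding genes the shares (WT and DNAJC12KO) were 5.56% and 7.16% with the record alone and 6.49% and 8.26% at 3 kb. They were 15.8% and 20.8% at 50 kb, and 8.57% and 8.26% with lists of equal length. With only peaks of -log10 q 2 or more, and likewise fold 4 or more, the WT list kept 2 genes (GPI and PFKL) with 2 peaks, and the DNAJC12KO list 0 genes and 0 peaks. Under these thresholds 2 and 0 of the 36 pathway genes had a peak, while 3.30% (WT) and 2.68% (DNAJC12KO) of all protein-coding genes did at the fold threshold and 1.3% and 1.5% at the -log10 q threshold. The WT peaks numbered 6 with the record alone and, in an alternative added after seeing the data, 6 when peaks in another gene record were left out, against 10. SLC16A3 kept 1 of its 3 peaks in each list with the record alone or 3 kb, and 1 of its 3 DNAJC12KO peaks with lists of equal length, which brought the DNAJC12KO total from 7 to 5. Of the WT peaks, 3 overlapped a DNAJC12KO peak. This fell to 1 when at least 50% of the shorter peak had to be shared, and to 1 when only peaks in the records counted. Within 10 kb of a DNAJC12KO peak lay 9 of the 10 WT peaks, against 40.2% of all WT peaks. Genes with peaks of both lists in the window have short gaps by construction, so nothing is read from this. The unknown depth of both libraries limits every absence of a peak. No paired analysis was possible because each genotype had 1 library.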
